A study of Saccharomyces cerevisiae with 14 samples.

Results

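The 480 tails described here carry an aromatic residue (Phe, Tyr or Trp) at position 2 and an aliphatic one (Val, Ile, Leu or Met) at position 5 of human cofilin-1. They were picked from the residues in their names out of a library of 16000 tails, by a rule that uses no measured value. Position 3 is Ser or Thr and position 4 is any of the 20 residues, so each of the 3 aromatic residues occurs in 160 tails, 80 with Ser3 and 80 with Thr3. A tail is written by its residues at positions 2 to 5, so that the human sequence, Ala-Ser-Gly-Val, is ASGV. The same position 3 to 5 sequence with Phe2, Tyr2 or Trp2 gives a matched set of 3 tails, and 160 such sets were compared.

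The library was expressed from the constitutive GPD promoter, with a His6 tag before the tail, in budding yeast whose own cofilin gene, COF1, is under a promoter repressed by doxycycline (DOX). The same cells carried full-length human LIMK1 under the GAL1 promoter, which is shut in glucose and induced by galactose. A library called T-1 was taken from cells in 2% glucose without DOX, and T0 from the start of the split cultures, after 2% raffinose with 10 mg per L DOX. No sample title gives a T-1 time point, so the T-1 libraries rest on the deposited index of primers, which places them among the reads of the samples titled time point 0. The split cultures were then held in 2% raffinose and 1% galactose with DOX (LIMK1 induced) or in 2% glucose with DOX (LIMK1 shut) and sampled at T1, T2 and T3. This was done in 3 screens, grown from frozen aliquots of 1 transformation, so all errors rest on 3 screens of 1 pool of transformants. Both media carried DOX, and every T0 to T3 library came from cells in which COF1 was repressed, so that the tail variants on the plasmid were the cofilin left to the cells.

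Cofilin binds actin filaments and severs them, and its N-terminal tail lies on the actin-binding surface. LIM kinases phosphorylate Ser3 of that tail, which blocks actin binding and switches cofilin off, while Thr at the same place is hardly phosphorylated by LIM kinases and keeps a hydroxyl group. A yeast cell whose cofilin variant works is therefore expected to be enriched in glucose. One whose variant is also phosphorylated and switched off by LIMK1 is expected to be lost in galactose. The paper found that human cofilin with Leu4 or Phe4 was highly phosphorylated by LIMK1 in yeast and still supported growth. Human cofilin with Pro4 showed no detectable phosphorylation by LIMK1 in vitro in the paper. A tail that persisted in galactose can therefore be a phosphorylated one or an unphosphorylated one. Galactose cultures also differ in carbon source, so Thr3 tails are given beside Ser3 tails throughout. The paper proposes that LIMK1 phosphorylates Tyr4 in Thr3 tails that have it, so those may not be unphosphorylated controls.

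Each residue had 1 codon in the library, so a tail had 1 spelling. The sequences shown, written 5′ to 3′ on the coding strand, cover codons 2 to 5 and have the position 2 codon in capitals. They sit in a cofilin open reading frame on a plasmid and have no chromosome position in yeast. The human tail is given with its 3 aromatic counterparts, since they carry the comparison of Phe2, Tyr2 and Trp2.
FSGV: TTCagcggtgtt
YSGV: TACagcggtgtt
WSGV: TGGagcggtgtt
ASGV: GCTagcggtgtt
With Gly4 and Leu5 the order of the 3 residues in glucose differed between Ser3 and Thr3, so these 6 tails are shown as well.
FSGL: TTCagcggtctg
YSGL: TACagcggtctg
WSGL: TGGagcggtctg
FTGL: TTCaccggtctg
YTGL: TACaccggtctg
WTGL: TGGaccggtctg
The last 5 stand for the responses to LIMK1: WSSI had the lowest LIMK1 effect of the members, WSLL and FSPI have Ser3 and were not depleted, and WTYV and YTYV were depleted with Thr3.
WSSI: TGGagctctatc
WSLL: TGGagcctgctg
FSPI: TTCagcccgatc
WTYV: TGGacctacgtt
YTYV: TACacctacgtt

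Libraries held 7185497 to 61265998 reads (median 23863730). No member was at 0 in any of the 24 libraries, and at T0 members had at least 30 reads and medians of 645 to 2029.5 per library. At T1, where the LIMK1 effect starts, the member with the fewest had 9 reads in galactose and 6 in glucose. At T3 the fewest were 1 read in galactose and 8 reads in glucose, so the LIMK1 effects of the rarest members rest on few reads. Levels are given in RPM, the reads of a tail per 1000000 reads of its library, and changes are log2 ratios of these fractions, so they are relative to the pool. Changes of single tails were tested with edgeR over all 16000 tails, with the screen as a block, at an adjusted p under 0.05. Matched tails were compared with limma on 1 difference per screen. Most tails of the library fell in glucose as a share of the reads. TMM factors, DESeq2's size factors and scaling to tails with a charged residue at position 5 add 2.88, 4.01 and 4.39 to every log2 change from T0 to T2. Directions in glucose are therefore those of a tail against the pool, and differences between tails do not move with the scaling.

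The members were 3% of the sequences. They took 4.58% (SD 0.47) of the reads at T-1 and 3.08% (SD 0.47) at T0 (mean and SD of 3 screens). In galactose they took 9.42% (SD 0.50) at T1, 11.1% (SD 0.26) at T2 and 11.5% (SD 0.22) at T3, and in glucose 8.93% (SD 0.42), 11.7% (SD 0.40) and 12.5% (SD 0.69). The gain came early. From T0 to T1 in glucose, 409 of the 480 rose and 18 fell by edgeR (whole library 28.4% and 63.0%), with a median log2 change of 1.60 (SD 0.26). From T1 to T2 they were 259 and 104 (12.7% and 71.8%), with a median of 0.32 (SD 0.03). From T2 to T3 edgeR called 0 members and 0 tails of the library in either direction (0.00%), against 39 members up and 65 down at an unadjusted p under 0.05, and the median was −0.03 (SD 0.12).

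Before the split the members had moved the other way. From T-1 to T0, 12 rose and 350 fell (whole library 24.2% and 33.1%), with a median of −0.68 (SD 0.19) against −0.11 (SD 0.01) over all tails. The T0 library enters both this change and the later rise. Counted from T-1 straight to T2 in glucose, 354 members rose and 63 fell (19.4% and 72.5%), and their median was 1.20 (SD 0.10), so the rise was smaller from that start.

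Over T0 to T2 in glucose, 369 of 480 members rose, 45 fell and 66 did not pass, where 20.9% of the library rose and 70.0% fell. The median change was 1.97 (SD 0.26) for Phe2, 2.03 (SD 0.28) for Tyr2 and 1.72 (SD 0.24) for Trp2. Phe2 had 128 tails that rose and 14 that fell, Tyr2 130 and 12, and Trp2 111 and 19. The medians of Phe2 and Tyr2 differ by less than their spread over screens. Within the residues the spread was wide, with means over screens of single tails at −5.39 to 3.85 for Phe2, −4.68 to 3.57 for Tyr2 and −6.00 to 3.79 for Trp2. For the aliphatic-5 tails with any other residue at position 2 the median was 1.36 (SD 0.24), with 1606 of 2720 risen, for Leu2 or Met2 it was 2.14 (SD 0.28), and over the whole library −4.06 (SD 0.60).

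The 3 residues were also set out by position 3. With Thr3 the medians were 2.14 (SD 0.27) for Phe2, 2.05 (SD 0.24) for Tyr2 and 1.66 (SD 0.23) for Trp2, and with Ser3 they were 1.79 (SD 0.19), 1.96 (SD 0.38) and 1.85 (SD 0.23). Of 80 tails each, 72 Phe2, 72 Tyr2 and 57 Trp2 tails rose with Thr3, and 56, 58 and 54 rose with Ser3. In matched Thr3 minus Ser3 pairs, limma over all 8000 pairs called 54 of 240 member pairs higher with Thr3 and 14 lower (all pairs 18.4% and 7.34%). These were 21 and 3 for Phe2, 18 and 2 for Tyr2, and 15 and 9 for Trp2.

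In the human context, Ser3-Gly4-Val5, the Tyr2 and Trp2 tails gained about as much as the human Ala2 tail and the Phe2 tail gained less. YSGV had 795, 919 and 834 RPM at T2 in glucose in the 3 screens, against 84.6, 71.4 and 60.3 at T0. WSGV had 363, 556 and 440.1 at T2 and 64.3, 48.1 and 39.1 at T0. FSGV had only 91.1, 147 and 106 at T2 and 54.7, 66.4 and 67.4 at T0. All 3 rose in every screen, FSGV least. The log2 changes were 3.57 (SE 0.23, edgeR adjusted p = 4.5e-49) for YSGV, which ranked 8 among 16000 tails, 3.18 (SE 0.24, adjusted p = 1.9e-37) for WSGV and 0.84 (SE 0.37, adjusted p = 0.025) for FSGV, beside 3.18 (SE 0.24, adjusted p = 8.9e-39) for ASGV, the human tail. By limma, the log2 difference FSGV minus YSGV was −2.73 (SE 0.33, adjusted p = 0.0083), and FSGV minus WSGV was −2.33 (SE 0.36, adjusted p = 0.015). Against the human tail, the limma difference from ASGV was −2.33 (SE 0.36, adjusted p = 0.0056) for FSGV, 0.39 (SE 0.35, adjusted p = 0.43) for YSGV and −0.0035 (SE 0.37, adjusted p = 0.99) for WSGV. With Thr3 in place of Ser3 the 3 tails had like changes. FTGV had 576, 670.4 and 528 RPM at T2 against 90.5, 135 and 119 at T0, a change of 2.38 (SE 0.22, adjusted p = 6.3e-25), and YTGV and WTGV changed by 2.18 (SE 0.24, adjusted p = 1.3e-18) and 2.66 (SE 0.37, adjusted p = 1.5e-12).

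With Ile5 or Met5 in place of Val5 in the Ser3-Gly4 set, the 6 tails lay close together, with log2 changes of 2.92 (YSGM) to 3.49 (FSGM). Leu5 split the set. YSGL had 262, 233 and 234 RPM at T2, against 51.2, 42.0 and 57.9 at T0. WSGL had 20.7, 19.8 and 21.6 at T2 and 25.5, 20.6 and 21.4 at T0, a change of −0.12 (SE 0.66, adjusted p = 0.87). FSGL had 4.69, 2.06 and 1.46 at T2 and 4.46, 13.0 and 3.70 at T0, a change of −1.32 (SE 0.68, adjusted p = 0.057), and its T-1 level had been 39.9, 35.5 and 33.8, so most of its share of the reads was lost before T0. Only YSGL, at 2.28 (SE 0.27, adjusted p = 6.0e-17), passed the test among these 3.

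With Thr3 the order was another. FTGL had 214, 349 and 349 RPM at T2, against 11.5, 23.9 and 31.7 at T0, in glucose, the highest log2 change of the library at 3.85 (SE 0.28, adjusted p = 1.9e-41). YTGL had 41.9, 61.9 and 87.5 at T2 and 31.2, 36.2 and 34.0 at T0, and at 0.85 (SE 0.53, adjusted p = 0.11) it did not pass. WTGL had 311, 322 and 218 at T2 and 45.0, 36.0 and 64.6 at T0, a change of 2.57 (SE 0.26, adjusted p = 1.5e-21). By limma, FTGL minus YTGL was 3.00 (SE 0.43, adjusted p = 0.012) and FSGL minus YSGL was −3.59 (SE 0.59, adjusted p = 0.017). In every screen the first difference was above 0 (3.80, 3.09 and 2.10) and the second below 0 (−2.29, −5.13 and −3.36). Of the 80 member sets that differ only at position 3, this was the 1 set whose Phe2 minus Tyr2 difference passed in opposite directions with Thr3 and with Ser3. A limma test of the difference between the 2 differences gave 6.59 (SE 0.68, limma adjusted p = 0.013).

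Over the 160 matched sets, few differences between Phe2 and Tyr2 passed, in both directions, and where Trp2 differed it was mostly the lower. Phe2 exceeded Tyr2 in 6 sets and lay below it in 7 (all 800 sets with any residue at position 5: 11.8% and 3.62%), with a median difference of −0.01 (SD 0.08). Phe2 exceeded Trp2 in 25 and lay below it in 6 (16.9% and 4.25%), with a median of 0.34 (SD 0.07). Tyr2 exceeded Trp2 in 24 and lay below it in 1 (12.2% and 6.88%), with a median of 0.27 (SD 0.09). The shares of member sets with Phe2 above or below Trp2 were near those of all sets. Phe2 above Tyr2 and Tyr2 below Trp2 were rarer among member sets than among all sets. These p-values were adjusted over all 2400 pairs of the 3 comparisons. The counts depend on having 3 screens: without screen 2 limma called 0 pairs in each comparison, and without screen 1 at most 4. The deficit of Trp2 was larger with Thr3 than with Ser3 by its medians, a difference tested only set by set. With Thr3 the median Phe2 minus Trp2 and Tyr2 minus Trp2 differences were 0.55 (SD 0.08) and 0.47 (SD 0.07), and with Ser3 they were 0.07 (SD 0.03) and 0.10 (SD 0.06).

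Among the widest differences that passed were those with Thr3-Leu4. FTLI and YTLI changed by 3.17 (SE 0.24, edgeR adjusted p = 3.9e-38) and 2.77 (SE 0.23, adjusted p = 8.8e-32), and WTLI by −0.68 (SE 0.63, adjusted p = 0.29), so that the limma difference was 3.86 (SE 0.45, adjusted p = 0.008) for Phe2 minus Trp2 and 3.46 (SE 0.56, adjusted p = 0.016) for Tyr2 minus Trp2. With Leu5 in place of Ile5 it was FTLL that was low, with 3.99, 15.9 and 15.0 RPM at T2 against 40.9, 45.0 and 40.8 at T0, while YTLL had 501, 371 and 433 at T2 against 80.2, 83.7 and 77.9 at T0, a Phe2 minus Tyr2 difference of −4.52 (SE 0.55, adjusted p = 0.0082). The other differences named by the rule, with Phe2 above Trp2, were 3.76 (SE 0.67, adjusted p = 0.021) with Thr3-Glu4-Val5 and 3.53 (SE 0.33, adjusted p = 0.0051) with Thr3-Pro4-Leu5. With Phe2 below Trp2 they were −2.96 (SE 0.33, adjusted p = 0.0069) with Thr3-Leu4-Leu5, −2.69 (SE 0.53, adjusted p = 0.027) with Thr3-Ala4-Leu5 and −2.41 (SE 0.47, adjusted p = 0.026) with Ser3-Leu4-Leu5. For Phe2 against Tyr2 they were 2.99 (SE 0.37, adjusted p = 0.0085) with Ser3-Cys4-Leu5, 2.65 (SE 0.59, adjusted p = 0.037) with Ser3-Pro4-Val5 and −3.46 (SE 0.36, adjusted p = 0.0066) with Ser3-Arg4-Leu5. For Tyr2 against Trp2 they were 3.53 (SE 0.51, adjusted p = 0.012) with Thr3-Glu4-Val5, 3.45 (SE 0.53, adjusted p = 0.014) with Ser3-Arg4-Leu5 and −3.12 (SE 0.42, adjusted p = 0.011) with Ser3-Cys4-Leu5, the 1 set in which Trp2 was the higher. Leu5 occurs in most of these sets.

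The 3 residues were also compared over single intervals, in both media. From T-1 to T0, with COF1 being repressed, limma found that Phe2 was above Tyr2 in 21 sets and below it in 37 (15.2% and 24.6%), Phe2 was above Trp2 in 27 sets and below it in 38 (27.6% and 22.8%) and Tyr2 was above Trp2 in 32 sets and below it in 27 (33.4% and 17.4%), the percents being those of all 800 sets. The median differences there were −0.14 (SD 0.03) for Phe2 minus Tyr2, −0.08 (SD 0.05) for Phe2 minus Trp2 and 0.11 (SD 0.03) for Tyr2 minus Trp2. From T0 to T1 in galactose, Phe2 was above Tyr2 in 6 sets and below it in 11 (12.9% and 4.00%), Phe2 was above Trp2 in 23 sets and below it in 6 (21.0% and 2.00%) and Tyr2 was above Trp2 in 24 sets and below it in 4 (15.2% and 7.12%). In glucose over the same interval, Phe2 was above Tyr2 in 7 sets and below it in 11 (13.0% and 4.00%), Phe2 was above Trp2 in 24 sets and below it in 10 (19.8% and 4.50%) and Tyr2 was above Trp2 in 26 sets and below it in 4 (13.0% and 6.12%). The medians were −0.05 (SD 0.08) for Phe2 minus Tyr2, 0.21 (SD 0.02) for Phe2 minus Trp2 and 0.32 (SD 0.07) for Tyr2 minus Trp2 in galactose, and −0.03 (SD 0.09) for Phe2 minus Tyr2, 0.17 (SD 0.04) for Phe2 minus Trp2 and 0.13 (SD 0.12) for Tyr2 minus Trp2 in glucose. The calls of the first interval were of like number in both media. From T1 to T2 limma called 0 pairs in galactose (0.00% of 2400) and in glucose (0.00%). At an unadjusted p under 0.05, Phe2 was above Trp2 in 18 sets and below it in 2 in galactose, and above in 19 and below in 3 in glucose. Tyr2 was above Trp2 in 16 and below in 1 in galactose, and above in 20 and below in 1 in glucose. The median differences from T1 to T2 were 0.03 (SD 0.02) for Phe2 minus Tyr2, 0.17 (SD 0.06) for Phe2 minus Trp2 and 0.15 (SD 0.02) for Tyr2 minus Trp2 in galactose, and 0.01 (SD 0.05) for Phe2 minus Tyr2, 0.20 (SD 0.02) for Phe2 minus Trp2 and 0.17 (SD 0.03) for Tyr2 minus Trp2 in glucose.

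The same limma test was applied to ask where the difference of 2 aromatic residues itself changed with position 3. It passed in 8 of 80 member sets for Phe2 against Tyr2 (all 400 sets 9.00%), in 11 for Phe2 against Trp2 (12.0%) and in 9 for Tyr2 against Trp2 (14.0%). This test was added after the values were seen, and the shares of member sets are near those of all sets. In the human Gly4-Val5 context the Phe2 minus Tyr2 difference was higher with Thr3 by 2.92 (SE 0.52, limma adjusted p = 0.022).

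With Ser3 the change in glucose varied widely with position 4. Over the 12 tails with Ser3 and Glu4, the mean log2 change in glucose was −3.72 (SD 0.73) for Phe2, −3.02 (SD 0.53) for Tyr2 and −4.66 (SD 0.87) for Trp2, and 11 of the 12 fell. With Lys4 the means were −1.23 (SD 0.16), −0.97 (SD 0.14) and −1.98 (SD 0.37). Over Ser3 members with Asp4, Glu4, Lys4, Arg4 or Gln4, 8 of 60 rose and 31 fell, with a median of −1.26 (SD 0.15). Leaving out these 5 and Pro4, 156 of 168 rose and 1 fell, with a median of 2.26 (SD 0.27). The highest Ser3 means by residue were those of Leu4, at 2.74 (SD 0.36) for Phe2, 3.13 (SD 0.13) for Tyr2 and 3.01 (SD 0.15) for Trp2, and Trp2-Phe4, at 3.05 (SD 0.23). Gly4, the human residue, gave 1.58 (SD 0.45), 2.96 (SD 0.12) and 2.44 (SD 0.22). The groups of position 4 residues were drawn after the values were seen. No share of like tails with another residue at position 2 is set beside the 156 of 168. Their rise is not read as particular to the aromatic tails.

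With Thr3 more of the tails with these residues rose. Of the 60 Thr3 members with Asp4, Glu4, Lys4, Arg4 or Gln4, 36 rose and 8 fell, with a median of 1.10 (SD 0.22). Arg4 gave 2.07 (SD 0.39) with Phe2, 2.01 (SD 0.46) with Tyr2 and 0.07 (SD 0.18) with Trp2, and Glu4 gave −0.50 (SD 0.14), −0.88 (SD 0.14) and −3.07 (SD 0.40). Trp2 was the lowest of the 3 with each of these 5 residues. Among aliphatic-5 tails with another residue at position 2, the same 5 residues gave a median of −0.56 (SD 0.04) with Thr3 and −3.50 (SD 0.56) with Ser3, so the aromatic tails were higher in both, beyond the SD over screens. Pro4 also divided by position 3: its means were 2.20 (SD 0.04), 1.84 (SD 0.32) and 1.23 (SD 0.25) for Phe2, Tyr2 and Trp2 with Thr3, and 0.79 (SD 0.57), −0.40 (SD 0.32) and −0.52 (SD 0.22) with Ser3.

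The 4 aliphatic residues at position 5 were ordered as follows. Met5 tails had the highest median, 2.31 (SD 0.32), with 108 of 120 risen and 2 fallen. Ile5 followed with 1.88 (SD 0.25) and 94 risen and 6 fallen, then Val5, the human residue, with 1.79 (SD 0.25) and 91 and 18, and Leu5 with 1.46 (SD 0.21) and 76 and 19. Ile5 and Val5 differed by less than the SD over screens, and the other neighbours by more. These SDs are those of each median by itself and not of matched differences, and the order was not tested. Met5 was the highest of the 4 for each aromatic residue, at 2.41 (SD 0.27) for Phe2, 2.33 (SD 0.31) for Tyr2 and 2.24 (SD 0.31) for Trp2. The paper also found Met5 most often among the enriched tails of the whole library. A high place of Met5 is therefore not particular to the aromatic tails. With Val5, 53 of 60 rose with Thr3 and 38 of 60 with Ser3, and with Met5 56 and 52.

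The members that gained most in glucose were, for Phe2, FTGL, FTPM at 3.67 (SE 0.24, edgeR adjusted p = 7.9e-51) and FSLV at 3.53 (SE 0.27, adjusted p = 4.1e-38). For Tyr2 they were YSGV, YSLL at 3.51 (SE 0.26, adjusted p = 2.9e-40) and YSLI at 3.17 (SE 0.24, adjusted p = 3.6e-38). For Trp2 they were WSLL, which ranked 2 in the library at 3.80 (SE 0.25, adjusted p = 3.1e-47) and had 299.9, 545 and 324 RPM at T2 against 21.2, 33.0 and 28.3 at T0, WSGM at 3.36 (SE 0.25, adjusted p = 2.2e-40) and WSGI at 3.36 (SE 0.32, adjusted p = 5.8e-25). The largest losses were those of the Ser3-Glu4 tails for all 3 residues. FSEV, FSEI and FSEL changed by −5.34, −4.59 and −3.47, YSEV, YSEI and YSEL by −4.66, −4.35 and −3.39, and WSEV, WSEI and WSEL by −5.66, −4.74 and −5.94 (edgeR adjusted p at most 1.4e-05). Of these, FSEL, YSEL and YSEI turned above 0 with scaling to a charged position 5, and FSEL and YSEL also with DESeq2. WSEL had 1.23, 2.06 and 0.347 RPM at T2, against 60.2, 62.2 and 66.7 at T0.

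Set against Ala, the human residue at position 2, all 3 aromatic residues were more often the higher in glucose in matched sets. By limma, Phe2 was above Ala2 in 79 of 160 sets and below it in 4 (all 800 sets 33.0% and 4.75%), with a median difference of 1.24 (SD 0.09). Tyr2 was above Ala2 in 71 of 160 sets and below it in 1 (all 800 sets 25.8% and 5.62%), with a median difference of 1.20 (SD 0.14). Trp2 was above Ala2 in 56 of 160 sets and below it in 8 (all 800 sets 22.1% and 8.75%), with a median difference of 0.80 (SD 0.07). The gain over Ala2 was largest with Leu5, at 1.77 (SD 0.16) for Phe2 and 1.74 (SD 0.30) for Tyr2, and least with Met5, at 0.76 (SD 0.16) and 0.52 (SD 0.11). FSGV is one of the 4 Phe2 tails below their Ala2 partner.

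Leu2, a large side chain without a ring, was more often higher than lower against each of the 3. Phe2 was above Leu2 in 15 of 160 sets and below it in 29 (all 800 sets 7.75% and 20.1%), with a median difference of −0.37 (SD 0.08). Tyr2 was above Leu2 in 11 of 160 sets and below it in 25 (all 800 sets 5.88% and 24.0%), with a median difference of −0.37 (SD 0.04). Trp2 was above Leu2 in 10 of 160 sets and below it in 47 (all 800 sets 7.12% and 29.4%), with a median difference of −0.63 (SD 0.05). The shares of member sets below Leu2 were no higher than those of all sets.

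The LIMK1 effect of a tail compares the media between T1 and T3. It is the log2 change in galactose less the log2 change in glucose over this time, so a tail lost only when LIMK1 is induced is below 0. It was below 0 for 147 of the 480 members and above 0 for 21, with 312 not passing (edgeR, whole library 9.89% and 3.57%). The members differed by position 3. Of 240 Ser3 members 134 were below 0 and 3 above, and of 240 Thr3 members 13 and 18. The whole-library shares mix Ser3 with Thr3 and include the 70.0% of tails that fell in glucose. They are therefore not a like measure for the Ser3 members. No share of Ser3 tails with aliphatic 5 and another residue at position 2 is set beside these counts. The counts are not read as particular to the aromatic tails. The paper reports that functional tails depleted in galactose mostly had Ser3 over the whole library. With Ser3 the median effect was −1.43 (SD 0.15) for Phe2, −1.67 (SD 0.29) for Tyr2 and −1.02 (SD 0.18) for Trp2, with 46, 48 and 40 of 80 below 0. With Thr3 the medians were 0.30 (SD 0.12), 0.28 (SD 0.12) and 0.15 (SD 0.10), with 3, 6 and 4 below 0. The values above 0 depend on the scaling and the screens: TMM gave 5, scaling to a charged position 5 gave 2 and DESeq2 gave 96, without screen 3 edgeR called 1, and without the replicate block 2. DESeq2's factors add 0.83 to every LIMK1 effect, and with them 84 members were below 0, 83 of them with Ser3.

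In matched pairs the effect was higher with Thr3 than with Ser3 in 86 of 240 and lower in 0 by limma (all 8000 pairs 9.40% and 0.237%), with 136 higher and 2 lower at an unadjusted p under 0.05. All 8000 pairs include tails that fell in glucose, so their shares are not a like measure for the member pairs. The median difference of the member pairs was 1.60 (SD 0.26). It was 1.73 (SD 0.18) for Phe2, 1.83 (SD 0.36) for Tyr2 and 1.14 (SD 0.15) for Trp2, with 31, 32 and 23 of 80 pairs called.

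The galactose over glucose ratios of Ser3 and Thr3 members moved apart with time. From T0 to T1 in galactose 390 members rose and 32 fell (whole library 25.9% and 64.9%). From T1 to T2 there 193 rose and 162 fell (10.3% and 73.0%), of which 144 and 27 had Thr3. From T2 to T3 81 rose and 161 fell (4.33% and 19.9%), of which 70 and 28 had Thr3, in an interval where edgeR called 0 changes in glucose. Set directly against glucose at T1, 69 members were higher in galactose and 70 lower (4.34% and 6.27%). At T2, 34 members were higher in galactose and 107 lower (3.25% and 8.18%), and at T3, 74 members were higher in galactose and 183 lower (6.20% and 39.1%). The share of members lower in galactose at T3 was near that of the library, and these counts are not split by position 3. The median galactose over glucose log2 ratio of Ser3 members was 0.08 (SD 0.09) at T1, −0.61 (SD 0.20) at T2 and −1.40 (SD 0.14) at T3, and that of Thr3 members −0.01 (SD 0.06), 0.09 (SD 0.05) and 0.20 (SD 0.04). At T3 the Ser3 medians were −1.40 (SD 0.15) for Phe2, −1.47 (SD 0.25) for Tyr2 and −1.26 (SD 0.05) for Trp2, which lie within about 1 SD of each other.

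Differences between Phe2, Tyr2 and Trp2 in the response to LIMK1 were not detected. In the 160 matched sets limma called 0 differences for each pair of residues (all 2400 pairs 0.00%), with a lowest adjusted p of 0.33 among member pairs. At an unadjusted p under 0.05, Phe2 was above Tyr2 in 5 sets and below in 1, Phe2 above Trp2 in 5 and below in 6, and Tyr2 above Trp2 in 7 and below in 11. The median differences were 0.05 (SD 0.06), 0.02 (SD 0.10) and −0.06 (SD 0.14). With Ser3 alone they were 0.10 (SD 0.11), −0.14 (SD 0.10) and −0.25 (SD 0.21). Against Ala2 limma called 0 of 480 differences (all 2400 pairs 0.00%), with 36 above and 37 below at an unadjusted p under 0.05, and against Leu2 also 0 (0.00%), with 65 above and 6 below. The median LIMK1 effect minus that of the matched Leu2 tail, with Ser3, was 0.43 (SD 0.07) for Phe2, 0.37 (SD 0.12) for Tyr2 and 0.55 (SD 0.15) for Trp2.

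In the human context the 3 aromatic tails and the human tail all fell with LIMK1. YSGV had 95.7, 74.9 and 95.5 RPM in galactose at T3, against 1237, 993 and 1296 in glucose at T3. FSGV had 19.3, 19.4 and 10.6 in galactose and 149, 144 and 217 in glucose. WSGV had 56.1, 67.4 and 77.1 in galactose and 638, 438 and 849 in glucose. ASGV had 78.3, 90.0 and 86.9 in galactose and 847, 707 and 558 in glucose. The levels of the 2 media did not overlap for any of the 4. Their LIMK1 effects were −3.53 (SE 0.17, edgeR adjusted p = 5.5e-92) for YSGV, −3.14 (SE 0.40, adjusted p = 1.3e-13) for FSGV, −2.58 (SE 0.21, adjusted p = 3.1e-33) for WSGV and −3.11 (SE 0.20, adjusted p = 4.2e-53) for ASGV. All 12 Ser3-Gly4 members were below 0, from −3.80 (FSGL) to −1.87 (WSGM). By LIMK1 effect the Ala2 tails ASGM, ASGL and ASGI also lay near the bottom of the 16000 tails, at ranks 15704, 15992 and 15726. The 12 Thr3-Gly4 members had effects of −0.05 to 0.40, and edgeR called 0 of them, with 0 also at an unadjusted p under 0.05. FTGV had 1190.5, 1348 and 772 RPM in galactose and 672, 1086 and 931 in glucose at T3, and these levels overlap. ATGV, the Thr3 partner of the human tail, had an effect of −0.07 (SE 0.18, adjusted p = 0.81).

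Among Ser3 members the LIMK1 effect varied with the residue at position 4, in a like order for the 3 aromatic residues. With Ala4, Ser4 or Thr4 all 36 members were below 0, with single tails at −4.44 to −2.39 and a median of −3.60 (SD 0.68). The mean with Thr4 was −3.48 (SD 0.51) for Phe2, −3.31 (SD 0.71) for Tyr2 and −3.92 (SD 0.45) for Trp2. Gly4 gave −2.88 (SD 0.28), −2.99 (SD 0.24) and −2.66 (SD 0.50), and Asn4 −2.14 (SD 0.07), −2.57 (SD 0.19) and −2.66 (SD 0.18). Among the aliphatic residues, Val4 gave −2.04 (SD 0.35), −1.82 (SD 0.13) and −0.78 (SD 0.29), and Met4 −0.91 (SD 0.28), −0.82 (SD 0.39) and −0.46 (SD 0.23). With Ile4, Leu4, Phe4, Trp4 or Pro4 most members were not called: 2 of 60 were below 0 and 3 above, with a median of −0.01 (SD 0.22). In the same 5 position 4 residues, 78 of 340 Ser3 tails with aliphatic 5 and another residue at position 2 were below 0, with a median of −0.33 (SD 0.13). The paper reports a like pattern over the functional tails of the library. Those depleted with LIMK1 mostly had Ser3 and a small residue at position 4. Depletion with small position 4 residues is therefore not particular to the aromatic tails. These classes were drawn after the values were seen and are descriptions.

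Tyr4 and Phe4, which differ by the ring hydroxyl of Tyr, had different LIMK1 effects, a difference given as means and not tested. With Ser3, Tyr4 gave −2.37 (SD 0.24), −2.30 (SD 0.09) and −2.16 (SD 0.23) for Phe2, Tyr2 and Trp2, and Phe4 gave 0.22 (SD 0.70), −0.05 (SD 0.24) and 0.24 (SD 0.46). Of 60 Ser3 members with a charged residue or Gln at position 4, 21 were below 0. By position 5, 31, 39, 25 and 39 of 60 Ser3 members were below 0 with Val5, Ile5, Leu5 and Met5.

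The members with the lowest effects were WSSI, WSTI and WSSL at −4.42 (SE 0.25, edgeR adjusted p = 5.6e-66), −4.34 (SE 0.36, adjusted p = 2.0e-32) and −4.10 (SE 0.45, adjusted p = 2.1e-18), FSAV, FSSI and FSAI at −4.13, −4.09 and −4.01, and YSAI, YSQM and YSSI at −4.10, −3.90 and −3.77. WSSI had 11.5, 27.2 and 22.5 RPM in galactose at T3, against 252, 277 and 319 in glucose. At T1 it had 324, 246 and 301 in galactose and 178, 197 and 211 in glucose, so that galactose was the higher at T1 and the lower at T3. WSLL had 282, 447 and 437 RPM in galactose and 555, 403 and 486 in glucose at T3, an effect of 0.33 (SE 0.20, adjusted p = 0.31) that did not pass, although it has Ser3, and it ranked 2 in the library by its rise in glucose.

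Among tails that passed with 1 sign in every screen, the highest effects were those of FSPI, FTPV and FTII at 1.07 (SE 0.27, edgeR adjusted p = 0.0011), 0.83 (SE 0.24, adjusted p = 0.005) and 0.70 (SE 0.18, adjusted p = 0.0019), of YSPI, YTII and YTVI at 1.35 (SE 0.32, adjusted p = 2.7e-04), 0.89 (SE 0.16, adjusted p = 5.7e-07) and 0.88 (SE 0.21, adjusted p = 5.2e-04), and of WTPV, WTKI and WTWM at 0.97 (SE 0.31, adjusted p = 0.017), 0.91 (SE 0.25, adjusted p = 0.0031) and 0.60 (SE 0.20, adjusted p = 0.02). Pro4 occurs in 4 of these 9. WSPI and WSPL ranked above them all by effect, at 94 and 121 in the library, but did not pass with edgeR scaled to total reads. FTKL, WSWM and WTRM, without Pro4, ranked 228, 257 and 321, and FSPL, with Pro4, ranked 384. These also ranked above most of the named tails, but were not among those that passed with 1 sign in every screen. FSPI had 175, 136 and 168 RPM in galactose at T3 and 127, 90.8 and 95.6 in glucose, and 138, 145 and 142 in galactose and 195, 189 and 194 in glucose at T1, so that between T1 and T3 the level fell in glucose in every screen and did not in galactose in 2 of 3.

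The paper reports that the few Thr3 tails of the library depleted by LIMK1 were enriched for Tyr4. It proposes that those tails are phosphorylated on Tyr4. Of the 13 Thr3 members below 0, 9 had Tyr4. They were all the Thr3-Tyr4 members with Val5, Ile5 or Leu5, and the 3 with Met5 did not pass. The effect was largest with Trp2, at −1.93 (SE 0.31, edgeR adjusted p = 1.5e-08), −1.87 (SE 0.30, adjusted p = 5.6e-09) and −1.74 (SE 0.26, adjusted p = 6.8e-10) for WTYI, WTYV and WTYL. For YTYI, YTYV and YTYL it was −0.85 (SE 0.21, adjusted p = 5.6e-04), −0.81 (SE 0.19, adjusted p = 1.7e-04) and −0.79 (SE 0.19, adjusted p = 3.8e-04), and for FTYV, FTYI and FTYL −0.80 (SE 0.19, adjusted p = 3.8e-04), −0.69 (SE 0.20, adjusted p = 0.0042) and −0.67 (SE 0.24, adjusted p = 0.041). WTYV had 47.4, 44.9 and 60.2 RPM in galactose at T3, against 146, 142 and 114 in glucose, while at T1 it had 226, 188 and 184 in galactose and 154, 145 and 132 in glucose. YTYV had 296, 268 and 366 in galactose and 421, 421 and 481 in glucose at T3. At T3 the galactose levels of both lay under all 3 glucose levels. All 12 Thr3-Tyr4 members had risen in glucose, with a median of 1.53 (SD 0.20).

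The median LIMK1 effect of the 12 Thr3-Tyr4 members was −0.78 (SD 0.12), against 0.28 (SD 0.07) for the other 228 Thr3 members. Of the 68 Thr3-Tyr4 tails with aliphatic 5 and another residue at position 2, 54 were below 0, with a median of −1.41 (SD 0.23). A Tyr at position 2 alone was seldom below 0. Of the 76 Tyr2-Thr3 members without Tyr4, 3 were below 0 and 9 above, with a median of 0.29 (SD 0.11). The remaining 4 Thr3 members below 0 were YTEL at −2.46 (SE 0.56, edgeR adjusted p = 1.8e-04), WTQV at −1.65 (SE 0.31, adjusted p = 1.5e-06), YTQV at −0.85 (SE 0.24, adjusted p = 0.0049) and YTQL at −0.75 (SE 0.24, adjusted p = 0.017), the last named after its value was seen. With TMM factors and with scaling to a charged position 5, only the 3 Trp2 tails of the 9 Tyr4 tails were called, and none of them with DESeq2, which moved the median of the 12 Tyr4 members to 0.05 and that of all Thr3 members to 1.11. Without screens 1, 2 and 3 in turn, 8, 7 and 5 of the 12 were below 0, and without the replicate block 6. The difference between Tyr4 and the other Thr3 members does not move with the scaling.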

How the data were processed

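The authors counted reads of each cofilin-1 tail variant by its sequence and deposited the raw counts of 16000 variants in 24 libraries, without normalization. The counting tool is not given in the sources used here, and neither is the use of the random primer bases as molecular identifiers, so reads are not independent molecules. Count columns were tied to samples by the screen and time point in the sample titles, with the medium from the deposited index of primers. The T-1 columns carry a time point that no title gives and were placed by that index alone. The starting plasmid library was not analysed here. The rule for the members uses no measured value, but it and the lists were chosen with earlier results of these data known.

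Changes were tested with edgeR 4.0.16 (quasi-likelihood, library size equal to total reads) over all 16000 variants, with the screen, or the culture within the screen, as a block. Same-numbered libraries share a screen by their labels. Their deviations over variants at T0 and at T2 in glucose correlated at 0.136, −0.0888 and −0.0411 within screens 1, 2 and 3. Between screens the correlations ran from −0.147 to 0.177. These values do not show the pairing, which rests on the labels. Matched pairs were tested with limma 3.58.1 on log2 values per screen, with 0.5 reads added, and Benjamini-Hochberg adjustment over all pairs of a family, at 0.05. Alternatives were TMM factors, DESeq2 1.42.0, scaling to tails with a charged position 5, low-count filters (at least 50 reads at T0 for pairs), 5 reads added, no block and leaving out a screen. A start at T-1 and the test by position 3 were added after the data were seen. The procedures were tested on simulated data. The p-values rest on 3 screens of 1 transformation. Both edgeR and limma share estimates of the spread over all tails or pairs. A very small p-value therefore does not come from the 3 values of a tail alone.

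Tails were named by rule. These were the Gly4 sets with ASGV and ATGV, for each residue the 3 highest and 3 lowest that passed with 1 sign in every screen in glucose and in LIMK1 effect, the 3 highest and 3 lowest matched differences that passed, and up to 5 Thr3 members per residue with a LIMK1 effect below 0. R 4.3.3, Python 3.11.15, pandas 2.3.3 and numpy 2.4.6 were used.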

Additional observations from a re-analysis of the deposited data

Results flagged for a closer look

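In glucose, the difference between matched aromatic tails itself differed between Thr3 and Ser3 for 28 of 240 tests in member sets, by limma. These were 8 of 80 for Phe2 minus Tyr2, 11 for Phe2 minus Trp2 and 9 for Tyr2 minus Trp2, against 9.00%, 12.0% and 14.0% of all 400 sets, so the members' share was near that of the whole library. The test was chosen after the data were seen. With Gly4 and Leu5, Phe2 minus Tyr2 was higher with Thr3 than with Ser3 by 6.59 (SE 0.68, limma adjusted p = 0.013), and Tyr2 minus Trp2 differed the other way, by −4.11 (SE 0.69, limma adjusted p = 0.021). With Leu4 and Ile5, Phe2 minus Trp2 was higher with Thr3 by 3.82 (SE 0.72, limma adjusted p = 0.023). FSGL had 58, 383 and 66 reads at T0 in screens 1, 2 and 3, against 666, 1235 and 1033 for YSGL.

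The LIMK1 effect was higher with Thr3 than with Ser3 in 86 of 240 matched member pairs by limma, and lower in none (all 8000 pairs 9.40% and 0.237%). At an unadjusted p under 0.05 it was higher in 136 and lower in 2. The 8000 pairs include tails that fell in glucose, so their shares are not a like measure for the member pairs. All of these values rest on 3 screens.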

How the results depend on the processing

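Scaling set the glucose directions and the edges of the LIMK1 calls. Members fallen in glucose numbered 9 with TMM factors, 5 with DESeq2 and 2 with scaling to a charged position 5, and members risen 444, 464 and 465. In the same order the medians of Phe2, Tyr2 and Trp2 became 4.86, 4.91 and 4.60, then 5.98, 6.03 and 5.72, then 6.36, 6.42 and 6.11. From T-1, a start chosen after seeing the data, they were 1.19, 1.32 and 1.01, with Phe2 below Tyr2 in 13 sets and Tyr2 below Trp2 in 7. LIMK1 effects below 0 numbered 84 with DESeq2. Those above 0 numbered 5 with TMM, 96 with DESeq2 and 2 with the charged scaling. For Phe2, Tyr2 and Trp2 with Ser3 the median LIMK1 effects were −1.08, −1.31 and −0.67 with TMM and −0.60, −0.83 and −0.19 with DESeq2's factors, and with Thr3 0.65, 0.63 and 0.50 and 1.14, 1.11 and 0.98. Without the replicate block, LIMK1 effects above 0 numbered 2, 1 with Thr3 and 1 with Ser3, Thr3 members below 0 numbered 8, and sets with Tyr2 below Trp2 in glucose numbered 2. Members risen and fallen in glucose, members below 0 in LIMK1 effect and the other matched sets in glucose were within 1.5 times. The low-count filters moved these counts by under 1.5 times, as did 5 reads in place of 0.5 for the matched sets.

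Leaving out 1 screen at a time gave 347 to 367 members risen and 31 to 53 fallen in glucose, and 132 to 136 below and 1 to 15 above 0 in LIMK1 effect. Matched sets with Phe2 above Tyr2 ranged over 0 to 3 and below over 0 to 5, Phe2 above Trp2 over 0 to 18 and below over 0 to 4, and Tyr2 above Trp2 over 0 to 20 and below over 0 to 2. The LIMK1 differences between the residues gave 0 calls under each alternative run. Without screen 2 the matched sets in glucose gave 0 calls as well. Runs with a screen left out therefore cannot show that the residues are alike.

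Among named tails, FSEL turned to 0.48 and YSEL to 0.63 in glucose with DESeq2, and with the charged scaling FSEL, YSEL and YSEI to 0.89, 1.00 and 0.044. FSGL and WSGL turned to 1.57 and 2.77 with TMM, 2.70 and 3.88 with DESeq2 and 3.07 and 4.27 with the charged scaling. Small LIMK1 effects turned sign too. ATGV, FTGI, WTGI and YTGV became 0.28, 0.31, 0.32 and 0.33 with TMM, 0.76, 0.79, 0.80 and 0.81 with DESeq2, and 0.010, 0.033, 0.043 and 0.058 with the charged scaling. With DESeq2, FTYI, FTYL, FTYV, YTYL and YTYV became 0.14, 0.17, 0.038, 0.056 and 0.027. With 1 screen left out, the LIMK1 effects that turned sign ranged over −0.31 to 0.074 for ATGV, −0.10 to 0.023 for FTGI, −0.021 to 0.31 for FTGL, −0.10 to 0.41 for FTGM, −0.28 to 0.33 for FTGV, −0.18 to 0.19 for WTGI, −0.021 to 0.39 for WTGV, −0.16 to 0.22 for YTGI, −0.011 to 0.67 for YTGL and −0.24 to 0.13 for YTGV. The scalings shift all tails of a comparison by nearly 1 value, and other causes were not tested. Depth limits tails with few reads, such as FSGL with an SE of 0.68 in glucose, against 0.27 for YSGL.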
